A study of Mus musculus with 2 samples.

Results

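The genes described here are 6 of the 55487 genes of the count table, and all 6 were found in it: Alox5, Alox5ap, Ltc4s, Ptgs1, Hpgds and Cysltr2. They were chosen by name, as enzymes and a helper protein of eicosanoid synthesis and a receptor for leukotrienes, and were followed across cell types and mouse strains. The study compared mimetic cells of the thymic medulla, which are epithelial cells that express the genes of cells from other tissues, between NOD, BALB/c and C57BL/6 (B6) mice. NOD mice develop autoimmune diabetes spontaneously, and BALB/c and B6 are common laboratory strains. Per the labels there were 2 mice of each strain, all of them female and 6 weeks old, and no treatment or engineered allele is given. Thymus fragments were digested, CD45+ leukocytes were depleted with magnets, and medullary epithelial cells low in MHC class II (mTEClo) without Pdpn and CD104 were sorted. All cells were encapsulated together in a single 3' droplet library, and an antibody carrying a DNA hashtag marked the mouse of origin. The hashtag label numbers both NOD mice as replicate 1 while the title of the pool names NOD replicates 1 and 2, and they were counted as 2 mice.

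Of 3447 barcodes, 2527 passed the limits of 500 or more detected genes and less than 15% of UMIs (unique molecular identifiers, each counting 1 captured molecule) from mitochondrial genes. Of these, 1705 had at least 80% of at least 100 hashtag UMIs on 1 of the 6 hashtags and were given to a mouse. The NOD mice had 120 and 122 cells, the BALB/c mice 412 and 595, and the B6 mice 215 and 241, with summed UMIs from 2369670 to 10253848 per mouse. Levels are given as CPM, the UMIs of a gene per 1000000 UMIs in the summed cells of a mouse and class. As a check of the hashtags, genes were picked in epithelial cells outside the tuft gate, at 20 CPM or more in both mice of a strain and 1 CPM or less in the other 4, and were then read in tuft-gated cells. The 2 genes picked for NOD summed to 36.6 and 81.3 CPM in the NOD mice and at most 2.00 CPM in the other 4. The 2 genes picked for BALB/c summed to 117 and 113 CPM in the BALB/c mice and 0 CPM in the NOD mice, but to 26.6 CPM in B6 mouse 1, from 40 UMIs, and 3.68 CPM in B6 mouse 2. The 4 genes picked for B6 summed to 375 and 325 CPM in the B6 mice and at most 3.63 CPM in the other 4.

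Eicosanoids are signalling lipids made from arachidonic acid, which phospholipases release from membranes. In the leukotriene branch, 5-lipoxygenase (Alox5) acts with the 5-lipoxygenase-activating protein (Alox5ap), and leukotriene C4 synthase (Ltc4s) then joins the product to glutathione to give the cysteinyl leukotrienes, which act on receptors such as that encoded by Cysltr2. In the prostaglandin branch, cyclooxygenase 1 (Ptgs1) makes prostaglandin H2, which the haematopoietic prostaglandin D synthase (Hpgds) turns into prostaglandin D2. Tuft cells, chemosensory cells of mucosal epithelia with a counterpart in the thymic medulla, are known for making both kinds of lipid in the gut and airway, as are mast cells and some myeloid cells.

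In GRCm38 (mm10), with GENCODE M21 annotation, Alox5 lies at chr6:116410077-116461178 on the minus strand with 14 exons in its principal transcript. Alox5ap lies at chr5:149264767-149288153 on the plus strand with 5 exons, and Ltc4s at chr11:50236461-50238616 on the minus strand with 5 exons. Ptgs1 lies at chr2:36230426-36252272 on the plus strand with 11 exons, Hpgds at chr6:65117293-65144908 on the minus strand with 6 exons, and Cysltr2 at chr14:73025603-73049114 on the minus strand with 6 exons. The RefSeq promoter table of GRCm38.p6, which spans 250 bases before to 50 bases after each start, held 5 of the 6 genes; Alox5ap was not among them. The 5 sequences are shown because 4 of these genes were high in the same cells and the fifth, Cysltr2, was not. Capitals mark the octamer ATGCAAAT, which proteins with a POU domain, the family of the tuft cell factor Pou2f3, are known to bind.
Alox5 (chr6:116461129-116461428, minus strand): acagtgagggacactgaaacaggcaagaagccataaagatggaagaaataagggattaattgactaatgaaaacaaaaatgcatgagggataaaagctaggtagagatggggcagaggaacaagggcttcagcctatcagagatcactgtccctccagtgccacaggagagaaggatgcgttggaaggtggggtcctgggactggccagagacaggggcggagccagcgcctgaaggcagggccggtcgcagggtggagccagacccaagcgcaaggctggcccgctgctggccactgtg
Ltc4s (chr11:50238483-50238782, minus strand): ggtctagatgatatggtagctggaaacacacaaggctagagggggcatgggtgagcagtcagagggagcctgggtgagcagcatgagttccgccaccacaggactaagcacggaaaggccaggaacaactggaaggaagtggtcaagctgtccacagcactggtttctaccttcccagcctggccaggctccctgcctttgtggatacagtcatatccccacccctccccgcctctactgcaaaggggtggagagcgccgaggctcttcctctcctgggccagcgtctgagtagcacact
Ptgs1 (chr2:36230176-36230475, plus strand): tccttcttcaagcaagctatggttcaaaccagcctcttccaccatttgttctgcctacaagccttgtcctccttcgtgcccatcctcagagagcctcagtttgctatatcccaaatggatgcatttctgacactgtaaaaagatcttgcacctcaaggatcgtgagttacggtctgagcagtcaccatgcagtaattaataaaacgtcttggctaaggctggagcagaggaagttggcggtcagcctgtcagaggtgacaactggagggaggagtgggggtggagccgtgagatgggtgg
Hpgds (chr6:65144681-65144980, minus strand): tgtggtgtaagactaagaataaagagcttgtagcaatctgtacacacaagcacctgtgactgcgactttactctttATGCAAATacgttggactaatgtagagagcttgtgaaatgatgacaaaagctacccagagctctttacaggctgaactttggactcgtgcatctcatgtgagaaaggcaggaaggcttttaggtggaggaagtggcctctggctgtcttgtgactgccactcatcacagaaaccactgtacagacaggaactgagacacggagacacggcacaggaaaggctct
Cysltr2 (chr14:73049065-73049364, minus strand): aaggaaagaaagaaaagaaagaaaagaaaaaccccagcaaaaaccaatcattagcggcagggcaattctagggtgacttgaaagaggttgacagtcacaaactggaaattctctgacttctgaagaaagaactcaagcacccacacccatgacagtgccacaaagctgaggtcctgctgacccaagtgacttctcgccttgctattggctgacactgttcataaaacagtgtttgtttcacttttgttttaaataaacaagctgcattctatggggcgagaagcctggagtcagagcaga
The octamer was searched on both strands, as ATGCAAAT and ATTTGCAT. It was found once, in Hpgds at position -174 from the start and on the strand of the gene, while 570 of 32851 promoters (1.74%) hold it. The TATA box letters TATAAA, searched on both strands, were in none of the 5 windows and in 13.6% of all promoters. The GC content of the windows was 55.7% for Alox5, 58.7% for Ltc4s, 50.7% for Ptgs1, 46.7% for Hpgds and 43.7% for Cysltr2, against a median of 52.7% over all promoters.

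Cells were placed in classes by marker genes, none of which was one of the 6 genes. A tuft-gated cell had UMIs of at least 6 of 12 tuft markers (among them Trpm5, Gnat3, Avil and Dclk1). Where it also met the gate of another class, its share of tuft markers led the share of that class by at least 0.25. The thresholds were set after marker counts had been seen. This gave 530 tuft-gated cells: 8 and 11 per NOD mouse, 124 and 179 per BALB/c mouse, and 115 and 93 per B6 mouse. The other 1038 epithelial cells were 463 immature mTEC, 153 epithelial cells without another gate, 115 keratinocyte, 86 ciliated, 64 Aire-positive, 62 cycling, 57 neuroendocrine, 20 microfold, 14 enterocyte-hepatocyte and 4 muscle cells. A myeloid or dendritic gate took 20 cells, although CD45+ cells had been depleted, and 58 cells that met several gates without such a lead were kept apart.

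The 12 tuft markers set the gate, so their summed level describes it and is no check of the label. It was between 11928 and 14648 CPM in tuft-gated cells of the 6 mice, against 126 to 271 CPM in the other epithelial cells. Of the 14 myeloid or dendritic markers, 12 had UMIs in tuft-gated cells, with a summed level of 107 CPM, against 229 CPM in other epithelial cells and 3942 CPM in myeloid-gated cells. Of 10 mast cell and basophil markers, 3 had UMIs in tuft-gated cells: Kit at 206 CPM, Hdc at 6.98 CPM and Cma1 with 1 UMI. Cpa3, Mcpt4, Mcpt8, Fcer1a, Ms4a2, Gata2 and Tpsb2 had no UMI there. The summed levels of the eosinophil, platelet and neutrophil lists were 8.33, 3.83 and 2.25 CPM. Of the 11 T lineage markers 10 had UMIs, with a summed level of 96.7 CPM, against 20.5 CPM in other epithelial cells. Themis at 48.6 CPM, Ptprc at 33.3 CPM and Lck at 11.1 CPM made up most of it, while Cd3e, Cd3d and Cd3g had 2, 5 and 1 UMIs and Rag1 none. Of the 8 B lineage markers 7 had UMIs, with a summed level of 1118 CPM, against 963 CPM in other epithelial cells. Jchain gave 983 and 931 CPM of these sums, and Cd79b 89.7 and 16.2 CPM. A UMI of Ptprc, which encodes CD45, was present in 12.5% and 18.2% of the tuft-gated cells of the NOD mice, 20.2% and 15.1% in BALB/c and 21.7% and 31.2% in B6.

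The 5 synthesis genes were concentrated in tuft-gated cells, and Cysltr2 was not. In each of the 6 mice Alox5, Alox5ap, Ltc4s, Ptgs1 and Hpgds were higher in tuft-gated cells than in the mouse's other epithelial cells, and all 5 differences passed the test, where 46.2% of all genes tested did so. Against myeloid-gated cells, tuft-gated cells were higher in Alox5, Ltc4s and Ptgs1, and did not differ past the threshold in Alox5ap and Hpgds. Cysltr2 was spread over several epithelial classes, and its 2 highest sums were those of microfold-gated and enterocyte-hepatocyte cells of B6 mouse 2.

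**Figure D1:**
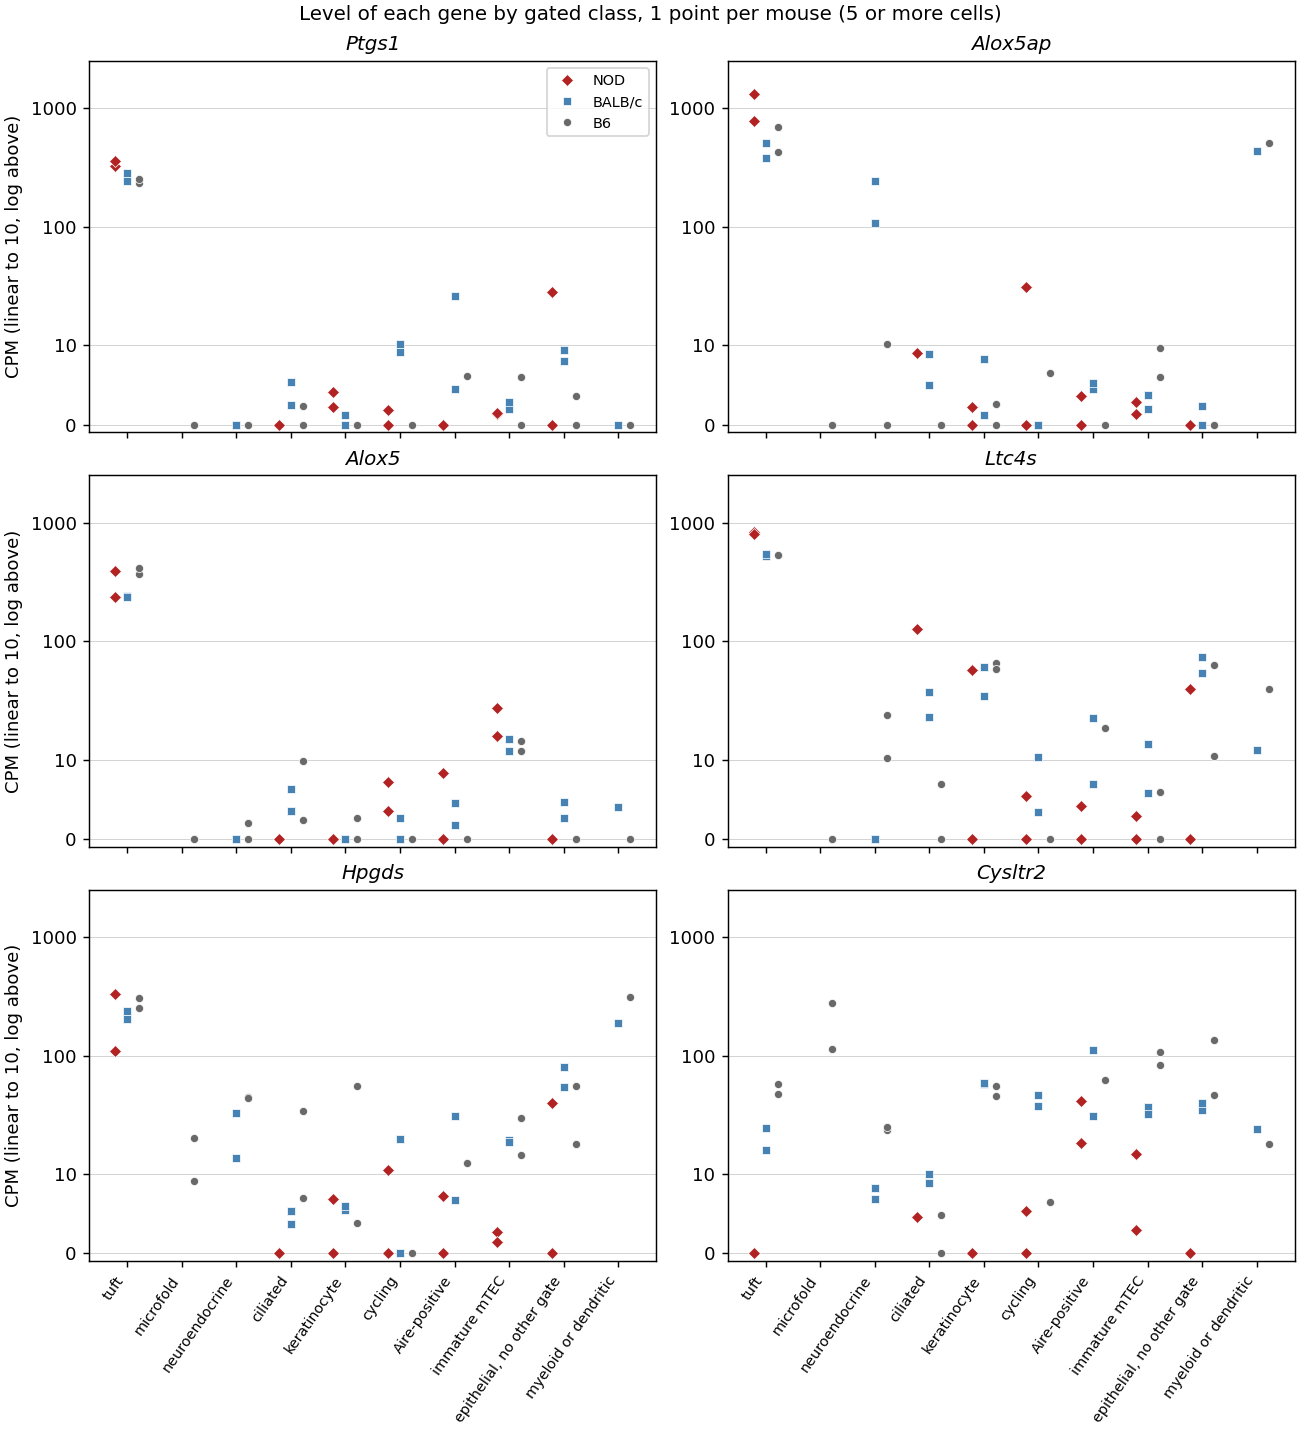
CPM of each gene by cell class (log axis above 10 CPM, linear below); each point is a mouse with at least 5 cells of the class and its symbol gives the strain. Tuft-gated cells stand at the top for Alox5, Ltc4s and Ptgs1 in every mouse, share the top with myeloid-gated cells for Alox5ap and Hpgds, and lie in the middle of the classes for Cysltr2.

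Alox5, the enzyme that starts leukotriene synthesis, stood at 238 and 392 CPM in tuft-gated cells of the NOD mice, 242 and 235 CPM in BALB/c, against 366 and 417 CPM in B6. In the other epithelial cells it stood at 7.43 and 10.8 CPM in NOD, 7.75 and 6.32 CPM in BALB/c, against 1.48 and 3.95 CPM in B6. No tuft-gated sum came near any sum of the other epithelial cells. With each mouse as a block, the log2 difference was 5.64 (SE 0.36; edgeR's quasi-likelihood test, Benjamini-Hochberg adjusted p = 2.72e-06), a fold of 49.9. Over the classes, tuft-gated cells led with 315 ± 85.7 CPM (SD, n = 6 mice). Cells of several gates followed with 50.6 ± 35.1 CPM (n = 4), and immature mTEC with 16.1 ± 5.75 CPM (n = 6) overlapped with these but stood apart from the next class.

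That low Alox5 level in immature mTEC, the precursors marked by Ccl21a, was found in every mouse. It was 16.0 and 27.4 CPM in NOD, 15.03 and 11.95 CPM in BALB/c, against 11.9 and 14.5 CPM in B6, the last from 2 and 3 UMIs. A UMI of Alox5 was present in 15.6% of immature mTEC, whose median depth was 9695 UMIs, against 0.870% of keratinocyte-gated cells at a median of 19477 UMIs. The share was thus higher in the shallower class. After each cell was thinned to 5000 UMIs the shares were 5.41% and 0.935%.

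Alox5ap, whose protein presents arachidonic acid to 5-lipoxygenase, stood at 780 and 1315 CPM in tuft-gated cells of the NOD mice, 514 and 377 CPM in BALB/c, against 432 and 690 CPM in B6. Other epithelial cells had 3.71 and 12.8 CPM in NOD, 11.6 and 5.64 CPM in BALB/c, against 0.984 and 3.95 CPM in B6. The log2 difference of 6.74 (SE 0.37; edgeR adjusted p = 1.09e-06) was a fold of 107. Tuft-gated cells averaged 685 ± 345 CPM (SD, n = 6 mice) and overlapped with myeloid-gated cells at 474 ± 57.2 CPM (n = 2). In neuroendocrine-gated cells the level was uneven: the 8 and 6 cells of the BALB/c mice had 245 and 107 CPM, against 0 and 10.4 CPM in B6. Of the 36 UMIs behind the first value 18 came from 1 cell, and all 13 UMIs behind the second did.

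Ltc4s, the last enzyme on the way to leukotriene C4, stood at 835 and 795 CPM in tuft-gated cells of the NOD mice, 527 and 546 CPM in BALB/c, against 537 and 533 CPM in B6. In other epithelial cells the values were 38.5 and 15.2 CPM in NOD, 25.7 and 17.1 CPM in BALB/c, against 24.6 and 16.3 CPM in B6. The groups were again far apart, with a log2 difference of 4.85 (SE 0.21; edgeR adjusted p = 2.41e-07) and a fold of 28.8. Part of the level outside the tuft gate lay in keratinocyte-gated cells, with 0 and 56.7 CPM in NOD, 60.8 and 34.5 CPM in BALB/c, against 65.0 and 58.3 CPM in B6. In the NOD mice single cells carried other values: 1 enterocyte-hepatocyte cell held 51 Ltc4s UMIs, and 1 ciliated cell held 18 of 28. An antisense gene that overlaps Ltc4s, Gm26542, had 714 UMIs in tuft-gated cells beside 4897 of Ltc4s; whether the counting used strand is not given in the sources used here, so the reads of the pair may not be separable.

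Ptgs1, the constitutive cyclooxygenase, stood at 329 and 361 CPM in tuft-gated cells of the NOD mice, 287 and 242 CPM in BALB/c, against 232 and 254 CPM in B6. Other epithelial cells had 2.79 and 0.981 CPM in NOD, 6.78 and 6.32 CPM in BALB/c, against 1.48 and 0.494 CPM in B6. The log2 difference was 6.41 (SE 0.42; edgeR adjusted p = 3.67e-06), a fold of 84.9. No UMI of Ptgs1 was found in microfold-gated cells of the 2 mice with at least 5 of them or in neuroendocrine-gated cells of the 4 such mice.

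Hpgds stood at 110 and 332 CPM in tuft-gated cells of the NOD mice, 236 and 204 CPM in BALB/c, against 305 and 253 CPM in B6. Other epithelial cells had 4.18 and 3.93 CPM in NOD, 28.1 and 20.3 CPM in BALB/c, against 22.6 and 30.6 CPM in B6. The log2 difference of 3.84 (SE 0.37; edgeR adjusted p = 3.68e-05), a fold of 14.4, was the smallest of the 5 synthesis genes. Myeloid-gated cells at 252 ± 89.4 CPM (SD, n = 2) and tuft-gated cells at 240 ± 79.1 CPM (n = 6) overlapped. Neuroendocrine-gated cells had 13.6 and 32.9 CPM in BALB/c, against 44.6 and 43.6 CPM in B6.

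Cysltr2, a receptor for leukotriene C4 and D4, had another pattern. In tuft-gated cells it stood at 0 CPM in both NOD mice, 24.5 and 16.0 CPM in BALB/c, against 57.9 and 47.9 CPM in B6. In the other epithelial cells it stood at 11.6 and 5.40 CPM in NOD, 39.5 and 36.2 CPM in BALB/c, against 54.6 and 75.6 CPM in B6. The tuft-gated sums were below the other epithelial sums of the same mouse in 5 of 6 mice. The difference did not pass the test (log2 -0.60, SE 0.27; edgeR adjusted p = 0.0908), but it did in 4 of 17 alternatives, with an adjusted p from 0.0300 to 0.778; DESeq2 was among the 4. Microfold-gated cells, counterparts of the cells that carry particles across the gut epithelium, had 115 and 276 CPM in the 2 B6 mice with at least 5 of them and led the order of classes by mean. Those 2 mice are both B6, while the means of most other classes mix the strains. Within B6 alone the pooled level was 180.1 CPM in microfold-gated cells, from 17 cells, and 179.6 CPM in enterocyte-hepatocyte cells, from 9 cells. A UMI was present in 13 of these 17 and in 4 of these 9 cells. In B6 mouse 2, 1 enterocyte-hepatocyte cell gave 18 of the 26 UMIs behind the second level. Enterocyte-hepatocyte cells of B6 mouse 2, at 186 CPM, and epithelial cells without another gate of B6 mouse 1, at 136 CPM, lay above the lower microfold value. Over all strains, Aire-positive cells followed at 52.7 ± 36.2 CPM (SD, n = 5), then immature mTEC at 46.0 ± 40.4 CPM (n = 6), epithelial cells without another gate at 42.9 ± 49.7 CPM (n = 6) and keratinocyte-gated cells at 36.3 ± 28.5 CPM (n = 6). Tuft-gated cells were the eighth class, at 24.4 ± 24.2 CPM (n = 6), and from Aire-positive cells down to them neighbours overlapped.

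Tuft-gated cells were set against myeloid-gated cells within the 2 mice that had at least 5 of each, BALB/c mouse 2 and B6 mouse 2, which leaves 1 residual degree of freedom. Alox5 stood at 235 CPM in tuft-gated and 4.01 CPM in myeloid-gated cells of the BALB/c mouse, and at 417 CPM and 0 CPM in the B6 mouse. The log2 difference was 7.08 (SE 0.86; edgeR adjusted p = 7.9e-15), and 29% of all genes passed this test. Ltc4s had 546 CPM in tuft-gated and 12.03 CPM in myeloid-gated cells of the BALB/c mouse, and 533 and 39.8 CPM in the B6 mouse (log2 4.17, SE 0.58; edgeR adjusted p = 2.36e-11). Ptgs1 had no UMI in the myeloid-gated cells of these mice and 242 and 254 CPM in their tuft-gated cells (edgeR adjusted p = 2.11e-15, and 0.197 with DESeq2). Without the mouse block the edgeR adjusted p was 0.000339 for Alox5, 0.00053 for Ltc4s and 0.000208 for Ptgs1.

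Alox5ap and Hpgds did not pass that test. Alox5ap had 377 CPM in tuft-gated and 433 CPM in myeloid-gated cells of the BALB/c mouse, and 690 and 514 CPM in the B6 mouse (log2 -0.14, SE 0.48; edgeR adjusted p = 0.865). Hpgds had 204 and 189 CPM in the BALB/c mouse and 253 and 315 CPM in the B6 mouse, tuft-gated cells first (log2 -0.36, SE 0.46; edgeR adjusted p = 0.623). Among all 222 myeloid-gated barcodes, with or without a mouse, 207 had a UMI of Alox5ap and 8 had one of Alox5. Their median depth was 33407 UMIs.

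Within tuft-gated cells most cells held several of the 5 synthesis genes at once. A UMI was present in 93.4% of the 530 cells for Ltc4s, 88.1% for Alox5, 82.5% for Hpgds, 78.9% for Ptgs1, 74.7% for Alox5ap and 21.5% for Cysltr2, at a median of 13526 UMIs per cell. In keratinocyte-gated cells, which are deeper, the shares were 34.8%, 0.870%, 11.3%, 2.61%, 5.22% and 29.6% in the same order of genes. All 5 synthesis genes had a UMI in 259 tuft-gated cells (48.9%), and the leukotriene C4 set of Alox5, Alox5ap and Ltc4s in 339 (64.0%). By mouse the share with all 5 was 25% and 72.7% in NOD, from 8 and 11 cells, 51.6% and 45.3% in BALB/c and 40.9% and 61.3% in B6. These shares depend on depth: with each cell thinned to 5000 UMIs, 24.5% of 489 cells held all 5 and 44.4% the leukotriene C4 set.

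Cells with Alox5 but no Alox5ap numbered 109 (20.6%), and cells with Alox5ap but no Alox5 numbered 38 (7.17%). Alox5ap UMIs were uneven between cells: 134 cells had none, the median was 4 and the highest count was 106. Alox5 ranged less, with 63 cells at none, a median of 4 and a maximum of 31. With each cell thinned to 5000 UMIs, 22.5% had Alox5 but no Alox5ap and 12.3% the reverse, and thinning itself leaves more cells without 1 of the pair.

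From 6 tuft markers on, the levels of Alox5ap, Alox5 and Ltc4s climbed with the number of markers in a cell, Ptgs1 climbed less evenly, and Hpgds did not. From 0 to 4 markers no such climb was seen: Alox5ap ran between 5.20 and 13.8 CPM, Alox5 between 2.96 and 14.3 CPM and Ltc4s between 12.9 and 34.3 CPM, with no single direction. Over all assigned epithelial cells and those of several gates, Alox5ap stood at 34.2 CPM in the 19 cells with 6 markers, 157 CPM in the 54 with 8, 341 CPM in the 141 with 10 and 851 CPM in the 81 with all 12. Alox5 stood at 28.2, 142, 271 and 411 CPM in the same cells, and Ltc4s at 120, 399, 528 and 631 CPM. Ptgs1 stood at 159, 105, 223 and 328 CPM. Hpgds was already at 312 CPM in the 10 cells with 5 markers and stood at 300.3, 209, 238 and 236 CPM at 6, 8, 10 and 12. Cysltr2 was at 42.8 CPM in cells without a tuft marker, 5.95 CPM at 6 markers, 4.84 CPM at 7, 29.7 CPM at 8 and 9.26 CPM at 9, and then at 34.7, 29.7 and 31.6 CPM at 10 to 12. The cells of a step come from several mice and differ in depth, with median UMIs of 34888 at 6 markers and 19179 at 12, so these are descriptions without a test.

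**Figure D2:**
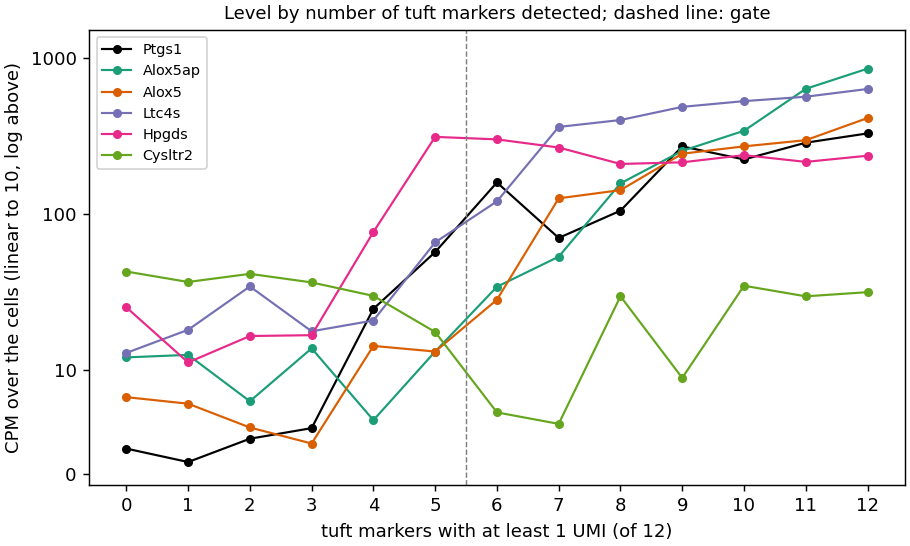
CPM of each gene, summed over cells (log axis above 10 CPM, linear below), against the number of the 12 tuft markers with a UMI in a cell; the dashed line marks the tuft gate. The line of Alox5ap passes 34.2 CPM at 6 markers, 341 CPM at 10 and 851 CPM at 12, whereas Hpgds stays between 209 and 312 CPM from 5 markers on and Cysltr2 dips to 4.84 CPM at 7 markers between 42.8 CPM at none and 31.6 CPM at 12.

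Between strains, 3 of the 6 genes passed at least 1 test in tuft-gated cells. For BALB/c against B6, 2 of the 6 were lower, where 8.99% of all genes passed. For NOD against B6, 1 was higher and 1 lower, where 11.3% passed. For NOD against BALB/c 0 of the 6 passed, where 1.21% did. Cysltr2 was lower in both NOD and BALB/c than in B6, Alox5 was lower in BALB/c than in B6 and Ltc4s was higher in NOD than in B6. Alox5ap, Ptgs1 and Hpgds passed no strain test in these cells. The NOD values rest on 8 and 11 cells, and single cells weigh heavily in them. In NOD mouse 1, 1 cell gave 98 of 128 Alox5ap UMIs, 23 of 39 of Alox5 and 12 of 18 of Hpgds. For Ltc4s, 1 cell gave 52 of 137 UMIs in NOD mouse 1 and 1 cell gave 58 of 225 in NOD mouse 2. Tuft-gated cells also differed in depth, with medians of 14449 and 25032 UMIs in NOD, 13954 and 18191 in BALB/c and 9000 and 10837 in B6; its part in the strain differences was not tested.

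**Figure D3:**
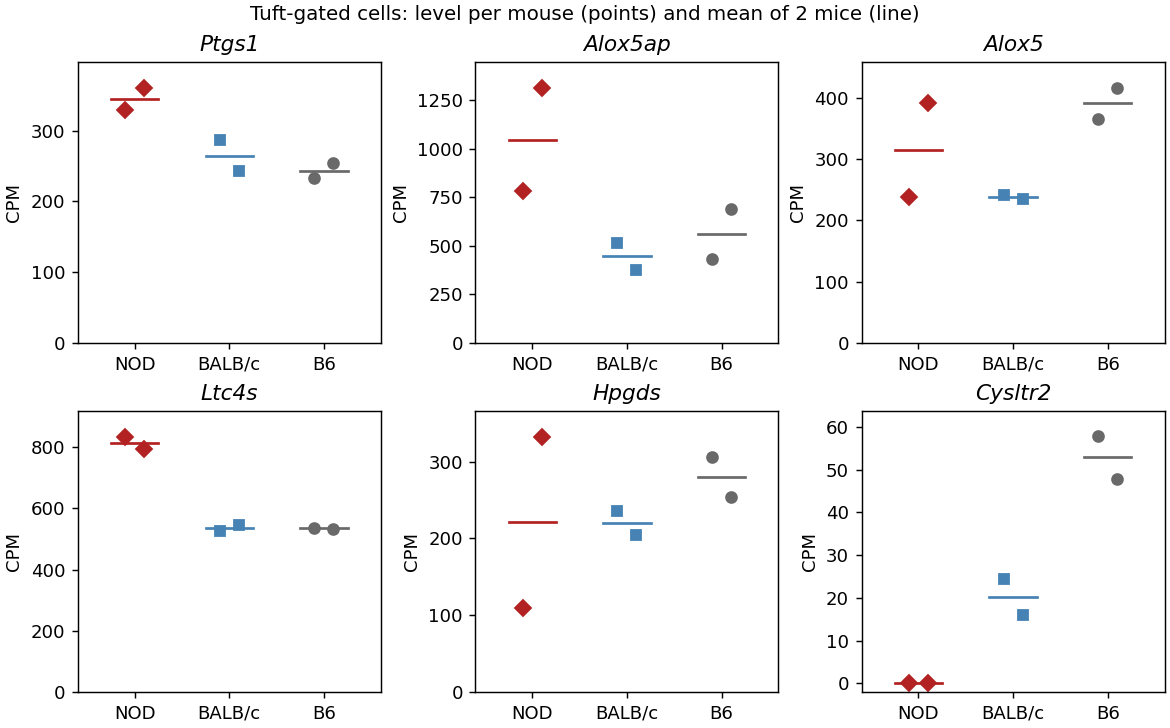
CPM of each gene in tuft-gated cells by strain; points are single mice and lines the mean of the 2 mice. The NOD points for Cysltr2 lie at 0 and the BALB/c points between them and B6, the NOD points for Ltc4s at 835 and 795 CPM lie above the other 4 mice, and the BALB/c points for Alox5 lie below those of B6.

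Cysltr2 in BALB/c tuft-gated cells had 108 UMIs in 303 cells, against 152 UMIs in 208 B6 cells. The values of 24.5 and 16.0 CPM in BALB/c, against 57.9 and 47.9 CPM in B6 did not overlap (log2 -1.43, SE 0.27; edgeR adjusted p = 0.00714, where 8.99% of all genes passed). Without BALB/c mouse 2 the adjusted p was 0.124, and without B6 mouse 1 it was 0.0898. Single cells gave 20 of the 54 Cysltr2 UMIs of BALB/c mouse 2 and 27 of the 87 of B6 mouse 1. In NOD tuft-gated cells no UMI of Cysltr2 was counted among 446986 UMIs. Set at the 3 counts over the group that a count of 0 allows, the NOD level was at least 7.92-fold lower than the pooled 53.1 CPM of B6 and at least 2.88-fold lower than the pooled 19.4 CPM of BALB/c. The difference from B6 passed the test (edgeR adjusted p = 0.00243, where 11.3% of all genes passed; 0.0899 at a hashtag share of 90%) and that from BALB/c did not (0.0666, where 1.21% passed).

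Alox5 in tuft-gated cells fell in BALB/c to 242 and 235 CPM, against 366 and 417 CPM in B6 (log2 -0.73, SE 0.21; edgeR adjusted p = 0.0463). The groups did not overlap, but leaving out any 1 of these 4 mice took the adjusted p to between 0.142 and 0.329, and it was 0.0961 without cells that had a Ptprc UMI. In NOD the values of 238 and 392 CPM overlapped with both other strains (log2 -0.27 against B6; edgeR adjusted p = 0.501). Ltc4s rose in NOD, to 835 and 795 CPM against 537 and 533 CPM in B6 (log2 0.61, SE 0.17; edgeR adjusted p = 0.0378). Leaving out any 1 of the 6 mice took this adjusted p to between 0.0542 and 0.213, and against BALB/c it was 0.108 (log2 0.62).

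The other 3 genes did not pass in any of the strain tests in tuft-gated cells. Ptgs1 was higher in both NOD mice than in the other 4 mice (log2 0.52 against B6, SE 0.19; edgeR adjusted p = 0.101). Alox5ap too was highest in the 2 NOD mice (log2 0.93 against B6, SE 0.33; edgeR adjusted p = 0.117), and its adjusted p was 0.0393 without cells that had a Ptprc UMI and 0.0486 without NOD mouse 1. For Hpgds the 2 NOD mice lay on either side of all others, so that the log2 difference against B6 was 0.26 without NOD mouse 1 and -1.42 without NOD mouse 2 (edgeR adjusted p = 0.00839 for the second). BALB/c and B6 did not differ past the threshold in Ptgs1 (log2 0.10, SE 0.17), Ltc4s (log2 -0.01, SE 0.17), Alox5ap (log2 -0.35, SE 0.32) or Hpgds (log2 -0.36, SE 0.36).

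Outside the tuft gate, Cysltr2 and Hpgds were the 2 genes that differed by strain, both lower in NOD. These comparisons were added after the levels had been seen. In the 1038 other epithelial cells Cysltr2 stood at 11.6 and 5.40 CPM in NOD, against 54.6 and 75.6 CPM in B6 (log2 -2.82, SE 0.34; edgeR adjusted p = 0.00367, where 14.6% of all genes passed), and 39.5 and 36.2 CPM in BALB/c (log2 -2.04, SE 0.34; edgeR adjusted p = 0.0520, where 0.775% passed). Hpgds stood at 4.18 and 3.93 CPM in NOD, against 22.6 and 30.6 CPM in B6 (log2 -2.60, SE 0.33; edgeR adjusted p = 0.00452) and 28.1 and 20.3 CPM in BALB/c (log2 -2.46, SE 0.32; edgeR adjusted p = 0.0236). The NOD values of both genes lay below those of the other 4 mice. With any 1 BALB/c or NOD mouse left out, the adjusted p of Hpgds against BALB/c was 0.0524 to 0.157, and DESeq2 gave 0.000484 for Cysltr2 against BALB/c. Between BALB/c and B6 no member passed there, where 9.78% of all genes did, at an unadjusted p of 0.0266 for Cysltr2, 0.00735 for Ptgs1 and 0.0373 for Alox5. The sums mix classes in proportions that differ between mice: immature mTEC, for example, gave 108 NOD, 327 BALB/c and 28 B6 cells.

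Within immature mTEC alone the same 2 genes were low in NOD. Cysltr2 stood at 14.7 and 2.88 CPM in NOD, 36.6 and 32.2 CPM in BALB/c, against 83.4 and 106 CPM in B6, so that the 3 strains did not overlap. The log2 difference was -3.28 for NOD against B6 (SE 0.51; edgeR adjusted p = 0.00118, where 3.94% of all genes passed), -1.81 for NOD against BALB/c (SE 0.45; adjusted p = 0.0307, where 3.76% passed) and -1.47 for BALB/c against B6 (SE 0.38; adjusted p = 0.0431, where 3.32% passed). The first kept its call in all alternatives run, and the other 2 lost theirs with DESeq2 (adjusted p = 0.110 and 0.115) and with at least 3 of the 6 mice left out singly. Hpgds stood at 2.67 and 1.44 CPM in NOD, from 3 UMIs, against 19.6 and 18.6 CPM in BALB/c (log2 -3.02, SE 0.67; edgeR adjusted p = 0.0138) and 29.8 and 14.5 CPM in B6 (log2 -3.19, SE 0.90; edgeR adjusted p = 0.0556). Single cells gave 11 of the 30 Hpgds UMIs of BALB/c mouse 1 and 20 of the 45 of mouse 2. The B6 values rest on 8 UMIs in all. With DESeq2, the adjusted p of Hpgds against BALB/c was 0.0895, and leaving out any 1 NOD or BALB/c mouse took it to between 0.0794 and 0.195. Alox5 did not pass between strains in immature mTEC, and Alox5ap, Ltc4s and Ptgs1 were too low there to be tested.

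Cysltr2 had no UMI in NOD in further classes. In keratinocyte-gated cells it stood at 0 CPM in both NOD mice, 58.1 and 58.2 CPM in BALB/c, against 45.9 and 55.7 CPM in B6. With 0 UMIs of 685132 in NOD, the level was at least 11.8-fold lower than the pooled B6 level and at least 13.3-fold lower than that of BALB/c. In epithelial cells without another gate it stood at 0 CPM in both NOD mice, 34.9 and 40.1 CPM in BALB/c, against 136 and 46.6 CPM in B6. With 0 of 157287 UMIs in 20 NOD cells, the level was at least 4.81-fold below pooled B6 and at least 1.98-fold below pooled BALB/c. Single cells gave 16 of the 39 UMIs of B6 mouse 1 and 8 of the 13 of B6 mouse 2. In Aire-positive cells, by contrast, the NOD values of 41.7 and 18.2 CPM overlapped with the 111 and 31.2 CPM of BALB/c, and B6 had 61.8 and 152 CPM, the second from 4 cells. In ciliated cells the pooled levels ran the other way, at 15.4 CPM for NOD, 9.53 CPM for BALB/c and 1.58 CPM for B6. By mouse they were 4.56 and 38.0 CPM in NOD, from 5 UMIs in 8 and 3 cells, 10.0 and 8.87 CPM in BALB/c, against 0 and 4.90 CPM in B6.

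**Figure D4:**
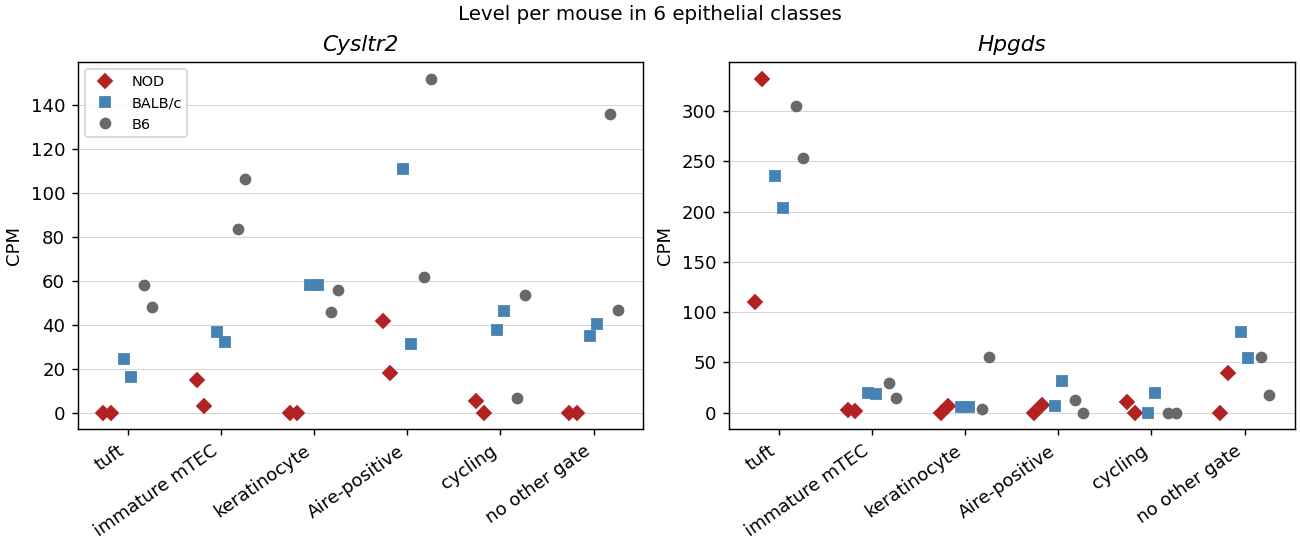
CPM of Cysltr2 and Hpgds by strain in 6 classes (tuft, immature mTEC, keratinocyte, Aire-positive, cycling and epithelial cells without another gate); each point is 1 mouse, and points from under 5 cells are included. The NOD points for Cysltr2 lie at 0 in tuft-gated cells, keratinocyte-gated cells and cells without another gate and under all other points in immature mTEC, and the NOD points for Hpgds lie under 3 CPM in immature mTEC but at 110 and 332 CPM in tuft-gated cells.

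Whether strain differences differed between tuft-gated and other epithelial cells was tested as an interaction. For Hpgds the NOD against B6 difference was -0.23 in tuft-gated cells and -2.60 in the other epithelial cells, with a log2 interaction of 2.12 (SE 0.49; edgeR adjusted p = 0.0529, where 3.08% of all genes passed). Alox5 had an interaction of -2.25 for NOD against B6 (SE 0.43; edgeR adjusted p = 0.0302) and -2.11 for BALB/c against B6 (SE 0.40; edgeR adjusted p = 0.0281, where 3.01% passed). For BALB/c against B6, Ptgs1 (-2.58, SE 0.58; edgeR adjusted p = 0.0472) and Alox5ap (-2.12, SE 0.47; edgeR adjusted p = 0.0440) also passed. The 4 contrasts that passed were those of Alox5, Ptgs1 and Alox5ap. In each, the gene stood higher outside the tuft gate in both mice of the other strain than in either B6 mouse. The B6 values of 0.494 to 3.95 CPM rest on 1 to 8 UMIs a mouse. Class proportions differed: immature mTEC were 28 of 200 other epithelial cells in B6, 327 of 631 in BALB/c and 108 of 207 in NOD. They held 5 of 11, 52 of 69 and 31 of 38 of the Alox5 UMIs, at pooled levels of 13.3, 13.1 and 21.5 CPM. The part of class proportions in the interactions was not tested. For Alox5ap and Ptgs1 few cells also carry the BALB/c side. Of the 81 Alox5ap UMIs in other epithelial cells of BALB/c, 49 came from the 14 neuroendocrine-gated cells. Single cells gave 18 of these in mouse 1 and 13 in mouse 2. Of the 65 Ptgs1 UMIs, single Aire-positive, muscle, enterocyte-hepatocyte and cycling cells gave 15, 8, 7 and 5. Cysltr2 did not pass (edgeR adjusted p = 0.352 for BALB/c and 0.231 for NOD).

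The genes most like each of the 6 were sought by Pearson correlation of log2(CPM + 10) over 31 sums of a class and a mouse with at least 10 cells, among 10657 genes. The sums share a library and differ in depth, so the correlations are descriptions. They also come from 3 strains, between which Cysltr2 differed, and the part of strain in the correlations was not tested. Alox5ap was followed most closely by Srpx2 (r = 0.97), Cd300lf (0.97) and Il25 (0.96), and Alox5 by Nrgn (0.96), Tmem245 (0.95) and Alox5ap itself (0.95). Ltc4s was most like Inpp5d (0.92). Ptgs1 was most like Sh2d6 (0.96), Cap1 (0.96) and Itprid1 (0.95), and Hpgds like Espn (0.92), Sdha (0.90) and Atp2a3 (0.90). Il25 and Sh2d6 are themselves gate markers. Cysltr2 was nearest to H2-Q5 (0.83), Pcdh17 (0.75) and H2-T22 (0.72), of which the first and last are MHC class I genes. Among the 5 synthesis genes r ran from 0.76 to 0.95, and with Cysltr2 from -0.11 to 0.22.

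Further genes of the eicosanoid pathway differed between tuft-gated and other epithelial cells in both directions. Of 58 further pathway genes in the table, 32 could be tested between tuft-gated and other epithelial cells, of which 8 were higher, 15 lower and 9 not past the threshold. Over all genes 46.2% passed this test, and the counts of the lists below stand beside that same share. Their median log2 difference was -0.70, against -0.05 over all genes tested and 5.24 over the 6 members.

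**Figure D5:**
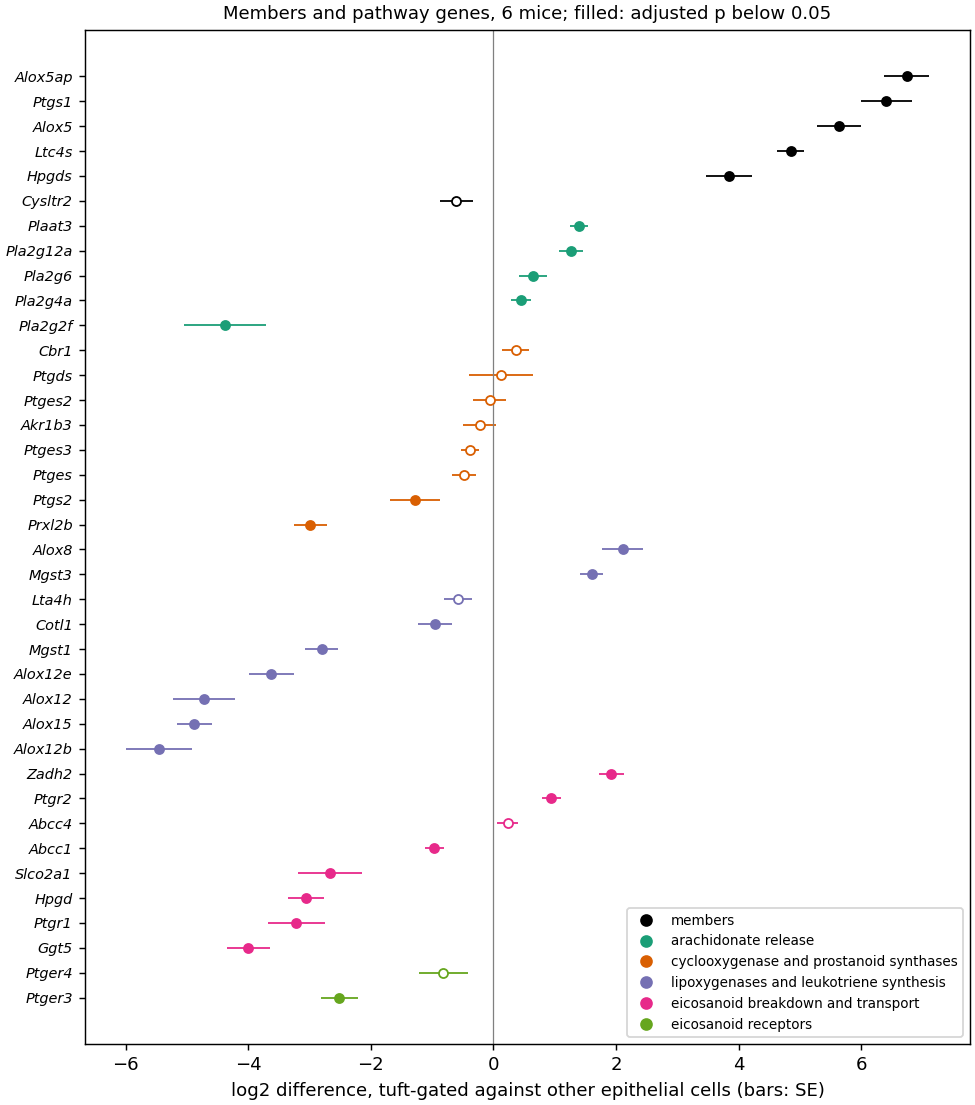
Log2 difference between tuft-gated and other epithelial cells of the 6 mice, with SE bars, for the 6 genes (black) and the 32 tested genes of the 5 pathway lists (colours); filled points have an adjusted p below 0.05. Alox5ap, Ptgs1, Alox5, Ltc4s and Hpgds lie between 3.84 and 6.74, Cysltr2 lies at -0.60 as an open point, and the pathway genes lie on both sides of 0 with Alox12b farthest to the left at -5.45.

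Of 5 tested genes of arachidonate release, 4 were higher. Plaat3, a phospholipase, had 281 CPM in tuft-gated cells and 121 CPM in other epithelial cells, summed over mice (log2 1.40; edgeR adjusted p = 3.88e-05), and Pla2g12a, a secreted phospholipase A2, had 39.5 and 16.1 CPM (log2 1.27; edgeR adjusted p = 0.000463). Pla2g4a, the cytosolic phospholipase A2 that supplies most arachidonate in many cells, had 122 and 96.2 CPM (log2 0.45, SE 0.16; edgeR adjusted p = 0.0388), a call held in 9 of 17 alternatives, with adjusted p from 0.0202 to 0.123. Pla2g2f, a secreted enzyme known from the epidermis, had 0.900 and 26.9 CPM (log2 -4.38; edgeR adjusted p = 0.000496).

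Among 8 tested cyclooxygenase and prostanoid synthase genes, none was higher and 2 were lower. Ptgs2, the inducible cyclooxygenase, had 11.9 CPM in tuft-gated cells and 40.0 CPM in other epithelial cells (log2 -1.28; edgeR adjusted p = 0.0277), a call held in 7 of 17 alternatives, with adjusted p from 0.000779 to 0.122. Prxl2b, which makes prostaglandin F2 alpha, had 27.5 and 261 CPM (log2 -2.99; edgeR adjusted p = 1.58e-05). Ptgds, the other prostaglandin D synthase, did not differ past the threshold (log2 0.12; edgeR adjusted p = 0.877).

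In the lipoxygenase and leukotriene list 2 of 9 tested genes were higher and 6 lower. Mgst3, a microsomal glutathione transferase that can form leukotriene C4 in vitro, had 237 CPM in tuft-gated cells and 106 CPM in other epithelial cells (log2 1.60; edgeR adjusted p = 8.5e-05), and the lipoxygenase gene Alox8 had 13.3 and 3.51 CPM (log2 2.11; edgeR adjusted p = 0.000534). The other lipoxygenases went the other way. Alox15 had 2.14 and 68.8 CPM (log2 -4.88; edgeR adjusted p = 9.84e-07), Alox12e, an epidermal enzyme, had 19.0 and 217 CPM (log2 -3.62), and Alox12 and Alox12b were at 0.338 and 0.225 CPM in tuft-gated cells, against 10.2 and 10.9 CPM. Mgst1 was lower as well, with 8.44 and 59.1 CPM (log2 -2.80). Lta4h, which diverts leukotriene A4 to leukotriene B4, had 16.7 and 23.8 CPM and did not pass (log2 -0.57, SE 0.23; edgeR adjusted p = 0.0655), though DESeq2 gave an adjusted p of 0.0220.

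Of 8 tested genes of eicosanoid breakdown and transport, 2 were higher and 5 lower. Hpgd, the dehydrogenase that inactivates prostaglandins, had 7.76 CPM in tuft-gated cells and 60.6 CPM in other epithelial cells (log2 -3.05; edgeR adjusted p = 2.28e-05). The prostaglandin transporter Slco2a1 had 16.9 and 120.1 CPM (log2 -2.67), Ptgr1, a reductase of leukotriene B4 and prostaglandins, 2.48 and 24.96 CPM (log2 -3.22), and Ggt5, which converts leukotriene C4 to D4, 3.94 and 69.8 CPM (log2 -4.00). Zadh2, another reductase of prostaglandins, was higher, with 44.3 and 13.2 CPM (log2 1.92). Of 14 other receptor genes 2 could be tested, and Ptger3, a prostaglandin E2 receptor, was lower with 4.28 and 24.2 CPM (log2 -2.51; edgeR adjusted p = 8.7e-05). Cysltr1, the other cysteinyl leukotriene receptor, had 1 UMI in tuft-gated cells and 0 in other epithelial cells, against 16 UMIs (17.4 CPM) in myeloid-gated cells.

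In tuft-gated cells 25 of the 58 pathway genes could be tested between strains. Against B6, Mgst3 and Cbr1 were higher in NOD, Slco2a1 and Alox12e, which had no UMI there, were lower, and in BALB/c Cbr1 was higher and Ptgds lower; against BALB/c, Mgst3 was higher in NOD. These are 4, 2 and 1 of the 25 genes, where 11.3%, 8.99% and 1.21% of all genes passed, so that the counts lie near the share over all genes. Mgst3 stood at 542 and 643 CPM in NOD, 203 and 183 CPM in BALB/c, against 257 and 287 CPM in B6, so that the NOD mice lay above all others (log2 1.14 against B6, edgeR adjusted p = 0.00289; log2 1.65 against BALB/c, edgeR adjusted p = 0.000577). Ptgds stood at 3.17 and 6.22 CPM in BALB/c, against 38.6 and 20.6 CPM in B6 (log2 -2.59; edgeR adjusted p = 0.00548). Cbr1, a carbonyl reductase that acts on prostaglandins, had log2 differences of 0.96 in NOD (edgeR adjusted p = 0.0127) and 0.64 in BALB/c (edgeR adjusted p = 0.0322), and each of these calls held in 11 of its alternatives, with an adjusted p up to 0.161 and 0.380. Ptgds lost its call without B6 mouse 1 (edgeR adjusted p = 0.0953).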

How the data were processed

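Single-cell 3' RNA and hashtag libraries of 1 pool of 6 mice were analysed. The deposited values are UMI counts per gene or hashtag and barcode, made with Cell Ranger 7.0.0 on mm10 per the submitters' processing notes; the annotation release, the barcode calling and the use of strand are not given in the sources used here. mm10 is the genome of B6 mice, so that reads of all 3 strains were counted against B6 sequence. Of the 822 passing barcodes without a mouse, 330 had under 100 hashtag UMIs and 492 mixed hashtags. No doublet caller was run. Mixed barcodes could be removed only by the hashtag share and by the lead of 0.25 among gates that a cell met. The table also held 9 hashtags outside the pool, which were not used.

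UMI counts were summed per mouse and class. Strain contrasts, tuft-gated against other epithelial or myeloid-gated cells (mouse as block) and the interaction were fitted over all genes passing filterByExpr with edgeR 4.0.16 (TMM, robust quasi-likelihood; R 4.3.3), with Benjamini-Hochberg adjustment and a threshold of 0.05; SE is the log2 difference divided by the root of the F statistic. DESeq2 1.42.0 was an alternative. A mouse is the replicate, and cells are not. Nothing says more of how the 2 mice of a strain were kept, so p-values measure the spread between them, which edgeR shares over genes. In the comparison with myeloid-gated cells, with 2 mice and 1 residual degree of freedom, the p-values rest mostly on that shared spread. The mouse pairs classes because both come from 1 animal; replicate numbers pair nothing between strains. Leukocyte gates also needed a Ptprc UMI. Intervals and the limit of 3 counts for a count of 0 cover counting error only. Gate markers were left out of the counts of genes called. The fitting scripts were tested on simulated data.

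The 6 genes, the pathway and marker lists and the tests were chosen with earlier results of these data known. The pathway genes named are those past an adjusted p of 0.05 between tuft-gated and other epithelial cells or between strains in tuft-gated cells, up to 20 by size, plus Pla2g4a, Ptgs2, Lta4h and Cysltr1, and the 3 genes most like each member, except that for Ltc4s only the first is reported here. Alternatives were DESeq2, DESeq2 size factors, no filter on low counts, hashtag shares of 90% and 60%, mitochondrial shares under 10%, 1000 detected genes, 1 more marker per gate, tuft-gated cells without Ptprc, the other choice of block, and each mouse left out.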

Additional observations from a re-analysis of the deposited data

Results flagged for a closer look

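Alox5 in immature mTEC of NOD mouse 2 stood at 27.4 CPM, from 19 UMIs in 57 cells, above the other 5 mice at 11.9 to 16.0 CPM by more than their own range. About 1 in 20 groups shows such a gap by chance, and nothing further was tested.

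Strain differences that were not the same in tuft-gated and other epithelial cells appeared as log2 interactions for BALB/c against B6 of -2.58 for Ptgs1, -2.12 for Alox5ap and -2.11 for Alox5. For NOD against B6 the interaction of Alox5 was -2.25. In the other epithelial cells of the B6 mice Ptgs1 stood at 1.48 and 0.494 CPM, Alox5ap at 0.984 and 3.95 CPM and Alox5 at 1.48 and 3.95 CPM, so that few UMIs decide these values. Of the Alox5 UMIs in other epithelial cells, immature mTEC held 5 of 11 in B6, 52 of 69 in BALB/c and 31 of 38 in NOD. Their pooled Alox5 level was 13.3, 13.1 and 21.5 CPM in that order. With DESeq2 the calls of Ptgs1 and Alox5ap were lost (adjusted p = 0.139 and 0.0944), and with a hashtag share of 90% those of Alox5 (edgeR adjusted p = 0.0521 for BALB/c and 0.175 for NOD).

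Barcodes without a mouse, used in no comparison, carried the same genes. In 181 tuft-gated barcodes the level was 646 CPM for Alox5ap, 541 CPM for Ltc4s, 287 CPM for Hpgds, 283 CPM for Alox5, 252 CPM for Ptgs1 and 16.9 CPM for Cysltr2. The 202 myeloid-gated barcodes had 696 CPM of Alox5ap, 218 CPM of Hpgds, 45.3 CPM of Ltc4s, 1.16 CPM of Ptgs1, 1.01 CPM of Alox5 and 1.01 CPM of Cysltr2. Their mice, and so their strains, cannot be given.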

How the results depend on the processing

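Between tuft-gated and other epithelial cells, Alox5, Alox5ap, Ltc4s, Ptgs1 and Hpgds kept their direction and call under all alternatives run, the fit without the mouse block included. Without that replicate block 5585 genes were called between these classes and 2500 between tuft-gated and myeloid-gated cells. The label's replicate number was used as a replicate block in a fit of the 4 BALB/c and B6 mice alone, without NOD. In tuft-gated cells 1118 genes and 2 of the 6 were then called between BALB/c and B6, and no call of the 6 changed.

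In tuft-gated cells, genes called for BALB/c against B6 numbered 1650 without a filter and 564 without Ptprc cells, and 241 to 1791 with a mouse left out. NOD against B6 gave 443 at a hashtag share of 90% (which leaves 5 mice), 821 without Ptprc cells and 595 to 1451 with a mouse left out. NOD against BALB/c gave 290 with DESeq2, 569 without a filter, 91 without Ptprc cells, 270 at a hashtag share of 60% and 79 to 243 with a mouse left out. Of the 6 genes, the calls for BALB/c against B6 numbered 1 at a mitochondrial share under 10% and without Ptprc cells, and 0 to 2 with a mouse left out. For NOD against B6 they numbered 0 at 90%, 4 at 60% and 1 to 2 with a mouse left out. For NOD against BALB/c they numbered 2 with DESeq2, 2 without a filter and 3 at 60%.

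In other epithelial cells the counts were 2916, 3651 and 1041 genes without a filter, in the order BALB/c against B6, NOD against B6 and NOD against BALB/c, and 321 to 1141, 708 to 1453 and 28 to 135 with a mouse left out; DESeq2 gave 316 for the last. Of the 6 genes, 3, 4 and 2 were called without a filter, 1 for the first and 2 for the last at 60%, 2 for the last with DESeq2 and 0 to 1 with a mouse left out. In immature mTEC the counts were 630, 679 and 612 without a filter and 90 to 466, 204 to 568 and 99 to 630 with a mouse left out; the last was 214 with DESeq2 and 191 at 90%. Of the 6 genes, none was called for BALB/c against B6 with DESeq2 (0) or at 90% (0), 2 for NOD against B6 without a filter, and 0 with DESeq2 and 1 at 90% for NOD against BALB/c; with a mouse left out they were 0 to 1, 1 to 2 and 0 to 2. Tuft-gated against myeloid-gated cells gave 1148 genes with DESeq2. The interaction gave 1072 and 952 genes without a filter and 62 at 90% for NOD; of the 6 genes, 1 was called for BALB/c with DESeq2 and 1 at a mitochondrial share under 10%, and for NOD 2 with DESeq2, 2 with its size factors, 2 without a filter, 2 with a stricter tuft gate and 0 at 90%. The cause was not tested.

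Small differences changed sign in these cases. For BALB/c against B6 in tuft-gated cells, Ptgs1 ranged from -0.017 to 0.21, Alox5ap from -0.65 to 0.0074 and Ltc4s from -0.046 to 0.018 with a mouse left out, and Ltc4s was at 0.025 at a hashtag share of 60%. For NOD against B6, Alox5 ranged from -0.79 to 0.018 and Hpgds from -1.42 to 0.26, the high ends without NOD replicate 1. Alox5ap was at 0.076 between tuft-gated and myeloid-gated cells without a filter. Thinning to 5000 UMIs lowered the shares of tuft-gated cells with a UMI to 59.1% for Ptgs1, 63.2% for Alox5ap, 73.4% for Alox5, 84.3% for Ltc4s, 62.2% for Hpgds and 11.5% for Cysltr2, and the joint shares to 24.5% and 44.4%. The hashtag share of 60%, the fits outside the tuft gate and the thinned joint shares were chosen after seeing the data. The tuft-gated cells of NOD hold 446986 UMIs, so that a gene under 6.71 CPM there could go uncounted.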

Other observations

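Tuft-gated cells with a UMI of Sparc, a gene of matrix binding, held less Cysltr2 than those without. The level was 10.5 CPM in the 32 Sparc cells and 31.8 CPM in the 92 others of BALB/c mouse 1, and 1.19 and 20.9 CPM in the 32 and 147 cells of mouse 2. B6 mouse 1 had 0 CPM in 4 Sparc cells and 61.2 CPM in 111 others, and B6 mouse 2 had 15.5 CPM in 5 and 51.3 CPM in 88. Single cells gave 27 of the 87 UMIs behind the 61.2 CPM and 20 of the 53 behind the 20.9 CPM. Sparc cells were lower in all 4 mice that had any Cysltr2 in these cells, but they were also deeper, with a median of 26242.5 UMIs against 11585, and the split was chosen after earlier results were known, so no test was made. Ptgs1 went no single way. In the Sparc cells of both NOD mice it was lower, with 290.3 and 238 CPM against 368 and 428 CPM in their others. These NOD values rest on only 2 and 3 Sparc cells and on 6 and 8 others. In the Sparc cells of both BALB/c mice Ptgs1 was higher, with 385 and 378 CPM against 235 and 197 CPM. In B6 it was at 246 against 231 CPM in mouse 1 and 194 against 260.5 CPM in mouse 2.

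In 8 microfold-gated barcodes without a mouse Cysltr2 stood at 153 CPM, from 9 UMIs, beside the pooled 170.1 CPM of the 20 assigned microfold-gated cells. Among the 14 enterocyte-hepatocyte cells, B6 mouse 2 had 186 CPM of Cysltr2, of which 18 of 24 UMIs lay in 1 cell. The 3 muscle-gated cells of BALB/c mouse 1 had 292 CPM of Hpgds, of which 29 of 39 UMIs lay in 1 cell.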
